A study of Rattus norvegicus with 6 samples.

Results

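The muscle miRNA family of miR-1, miR-133 and miR-206 was read out in rat myocardium 4 weeks after myocardial infarction (MI). Its 7 members, of 758 rat miRNAs on the array, were taken by name (rno-miR-1-3p, rno-miR-1-5p, rno-miR-1b, rno-miR-133a-3p, rno-miR-133a-5p, rno-miR-133b-3p and rno-miR-206-3p). The animals were male Sprague–Dawley rats, for which the labels give no genetic change and no age. In the model group (condition AMI model, labelled MI), the left coronary artery was tied off at its anterior descending branch, and tissue came from the margin of the infarct. In the control group (labelled Non-MI), sham-operated rats had the thread passed without a ligation, and the labels say only myocardium for the place of sampling, so that ligation and place of sampling cannot be told apart. The study put 3 rats of each group on the arrays, 1 rat on each array. The 6 arrays shared a slide and a scan time. Each detected 27.2% to 29.3% of the miRNAs, and no spot was saturated.

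MiR-1 and miR-133 are made mainly in heart and skeletal muscle, where they are among the most abundant miRNAs, and the genes of a miR-1 and a miR-133 usually lie side by side and are transcribed together. MiR-1 is known for favouring muscle differentiation, and miR-133 for restraining growth of the muscle cell and for repressing serum response factor. MiR-206 is typical of skeletal muscle and shares its seed with miR-1. A miRNA recognises its targets mostly through the seed, and each precursor hairpin can give a product from its 5′ arm (-5p) and from its 3′ arm (-3p), and usually the product of a single arm predominates.

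The sequences show which of these miRNAs the array had to tell apart. RefSeq entries on the rat assembly GRCr8 were found for 7 of 7 members, from 5 precursor genes. Each line runs 5′ to 3′, and capitals mark the seed, bases 2 to 8. The miR-1 and miR-206 products of the 3′ arm share 1 seed:
rno-miR-1-3p: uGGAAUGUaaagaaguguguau
rno-miR-1b: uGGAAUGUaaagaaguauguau
rno-miR-206-3p: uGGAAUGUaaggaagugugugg
The miR-133 products of the 3′ arm share another seed:
rno-miR-133a-3p: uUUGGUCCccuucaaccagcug
rno-miR-133b-3p: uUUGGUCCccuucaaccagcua
The products of the 5′ arm each have a seed of their own:
rno-miR-1-5p: gCACAUACuucuuuauguaccc
rno-miR-133a-5p: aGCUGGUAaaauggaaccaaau

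Counted from the 5′ end, rno-miR-1b differs from rno-miR-1-3p at 1 of 22 bases (G17A), and rno-miR-133b-3p from rno-miR-133a-3p at 1 of 22 bases, the last (G22A). Rno-miR-206-3p keeps 19 of the 22 bases of rno-miR-1-3p and differs at 3 (A11G, A21G and U22G). All of these differences lie outside the seed. Probes for miRNAs that differ by 1 base may bind each other's RNA, and how far they did so here was not tested.

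The genes fall into 3 places. Mir1, which gives rno-miR-1-3p (chr18:2160339-2160360) and rno-miR-1-5p (chr18:2160380-2160401), lies 2368 bases from Mir133a1, which gives rno-miR-133a-3p (chr18:2157886-2157907) and rno-miR-133a-5p (chr18:2157923-2157944). Both genes are on the minus strand inside the span of the protein-coding gene Mib1, which is on the opposite strand. Their hairpins are shown because the comparison of arms below rests on them, with the mature products of the 5′ and the 3′ arm in capitals:
Mir1: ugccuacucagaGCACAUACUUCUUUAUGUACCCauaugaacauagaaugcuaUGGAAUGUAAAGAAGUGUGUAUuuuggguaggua
Mir133a1: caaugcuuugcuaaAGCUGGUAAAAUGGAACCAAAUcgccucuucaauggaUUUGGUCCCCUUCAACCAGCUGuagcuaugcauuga

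Mir206, which gives rno-miR-206-3p (chr9:30590747-30590768), and Mir133b, which gives rno-miR-133b-3p (chr9:30594629-30594650), are 3801 bases apart on the plus strand, inside the span of the long noncoding RNA gene LOC120094648 on the same strand. Mir1b (rno-miR-1b, chr3:187864736-187864757, plus strand) overlaps no annotated gene.

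In the model group, rno-miR-1-3p, rno-miR-1b, rno-miR-133a-3p, rno-miR-133a-5p and rno-miR-133b-3p fell to between 58.3% and 62.3% of their control level, no member rose, and rno-miR-206-3p was not detected in either group. Rno-miR-1-5p had 76.9% of its control level and did not pass the test. Of the 6 members tested, 5 were called lower and 0 higher by limma at a Benjamini-Hochberg adjusted p of 0.05, where 12.6% of all 214 tested miRNAs were called lower. Probes for members that differ by 1 base may share signal, so the 5 called need not be separate readings. All 6 tested members had every model array below every control array after scaling, which 30.8% of all tested miRNAs had. The median log2 fold change of the members was -0.71, against -0.14 over all 214 tested miRNAs, and no member changed by more than 2-fold. Signals here are the fluorescence of a miRNA's probes with background subtracted, summed over the probes whose signal was over 3 times its error. To compare arrays, 198 miRNAs that every array detected were ranked by signal, each array was scaled by their 75th percentile, and log2 was taken. The median log2 fold change of those 198 miRNAs was then -0.15, and relative to it the members were at -0.63 to -0.23. In whole tissue, fewer muscle cells and less miRNA per muscle cell cannot be told apart.

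Rno-miR-1-3p, the main product of Mir1, had signals of 6929, 11740 and 7013 on control arrays 1, 2 and 3, and of 6417, 5117 and 5861 on model arrays 1, 2 and 3. Already before scaling, every model array was below every control array, and control array 2 stood high. On the scaled log2 scale its level was 5.71 ± 0.21 in the control group against 4.94 ± 0.20 in the model group (mean ± SD, n = 3 each). It fell by 0.76 on the log2 scale (SE 0.15, limma adjusted p = 0.0203), to 58.9% of the control level.

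Rno-miR-1b, the near-identical paralogue from chromosome 3, had signals of 5194, 7773 and 5243 on the control arrays against 4646, 3490 and 4283 on the model arrays. The groups did not overlap before scaling, and model array 2 was the lowest of the 6. The scaled log2 level was 5.23 ± 0.11 in the control group against 4.45 ± 0.25 in the model group (mean ± SD, n = 3 each), with a log2 fold change of -0.78 (SE 0.15, limma adjusted p = 0.017). By size of the fall, rno-miR-1b and rno-miR-1-3p were at places 4 and 5 of all 214 tested miRNAs, called or not.

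Rno-miR-133b-3p, the product of the gene beside Mir206, gave the strongest signal of the family, with 9222, 13643 and 9953 on the control arrays against 9004, 6337 and 8084 on the model arrays. The highest model array was just below the lowest control array, and control array 2 was again the highest of all. Its scaled log2 level was 6.09 ± 0.09 in the control group against 5.36 ± 0.29 in the model group (mean ± SD, n = 3 each), a log2 fold change of -0.72 (SE 0.16, limma adjusted p = 0.0268). The probes for rno-miR-133b-3p may also bind rno-miR-133a-3p, which differs only at the last base. How much of the signal came from each was not tested.

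Rno-miR-133a-3p, the main product of Mir133a1, had signals of 337.6, 514.4 and 376.6 on the control arrays against 348.3, 244.7 and 306.3 on the model arrays. Before scaling, model array 1 was above control array 1, so that the groups overlapped, and after scaling they did not. The scaled log2 level was 1.34 ± 0.11 in the control group against 0.66 ± 0.28 in the model group (mean ± SD, n = 3 each), a log2 fold change of -0.68 (SE 0.16, limma adjusted p = 0.0297).

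Rno-miR-133a-5p, from the other arm of the same hairpin, had signals of 194.8, 291.3 and 189.3 on the control arrays against 177.8, 141.5 and 163.1 on the model arrays, without overlap. The scaled log2 level was 0.48 ± 0.13 in the control group against -0.23 ± 0.20 in the model group (mean ± SD, n = 3 each), and the log2 fold change was -0.70 (SE 0.13, limma adjusted p = 0.017). The arms of the miR-133a hairpin thus had changes that differed by less than their standard errors.

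Rno-miR-1-5p, from the other arm of Mir1, was close to the limit of detection, with signals of 11.4, 12.1 and 10.2 on the control arrays against 9.17, 11.3 and 10.3 on the model arrays. The groups overlapped before scaling. The scaled log2 level was -3.82 ± 0.15 in the control group against -4.20 ± 0.24 in the model group (mean ± SD, n = 3 each), with a log2 fold change of -0.38 (95% interval -0.74 to -0.01, limma adjusted p = 0.122). The ratio of rno-miR-1-5p to rno-miR-1-3p within each array is given below. Its test cannot give a p under 0.10, so it cannot decide whether their changes differed.

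**Figure D1:**
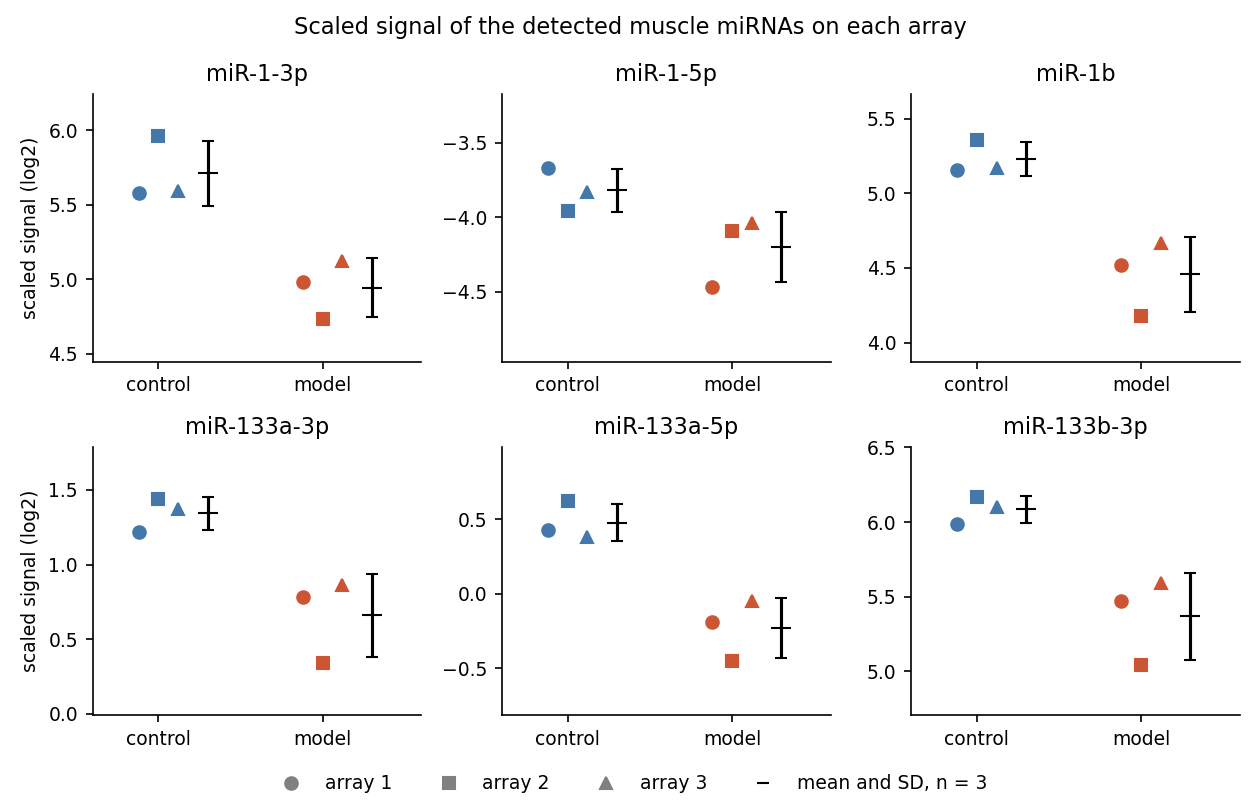
Scaled signal on the log2 scale (y axis) of the 6 detected members in the control and model groups (x axis). Each point is 1 array, with its number given by the shape, and the bars are the mean and SD of 3 arrays. In every panel the model points lie below the control points, with the smallest gap for miR-1-5p, and model array 2 is the lowest except for miR-1-5p. The y axes differ between panels and do not start at 0.

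Rno-miR-206-3p, the skeletal muscle member, was not detected on any of the 6 arrays. Its probes summed to -1.97, -2.59 and -2.16 on the control arrays against -0.83, -1.42 and -1.36 on the model arrays after background subtraction, while the lowest signal of a detected miRNA was 1.16 or more. These probes gave no signal on arrays where rno-miR-1-3p, which shares 19 of 22 bases, had signals of 5117 to 11740. Rno-miR-206-5p and rno-miR-133b-5p, the 5′ arm products of the same pair of genes, were not detected on any array either. The same held for rno-miR-133c and rno-miR-3571, whose genes lie on the strand opposite Mir133a1 and Mir1.

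Single probes of a member moved together. Of 16 probes for the family, 14 were tested, 14 had a log2 fold change below 0, and 11 were called lower by limma, where 17.0% of all 394 tested probes were. Probes of a member read the same RNA on the same arrays, so these calls are not separate from those of the members. The 10 probes of the members other than rno-miR-1-5p had log2 fold changes between -0.79 and -0.66, with a highest adjusted p of 0.0142 by limma. These members have a brighter and a dimmer probe each. The brighter one gave 83.5% to 84.5% of the signal of rno-miR-1-3p over the 6 arrays, 92.0% to 92.2% of that of rno-miR-1b and 87.8% to 88.0% of that of rno-miR-133b-3p. For rno-miR-133a-3p it gave 82.4% to 83.3%, and for rno-miR-133a-5p 89.7% to 90.4%. The share hardly moved from array to array, and the log2 fold changes of a member's probes were at most 0.05 apart.

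The 4 probes of rno-miR-1-5p were less even. Their log2 fold changes were -0.39, -0.56, -0.20 and -0.34, with limma adjusted p of 0.0817, 0.035, 0.295 and 0.165, so that 1 of them was called. These probes were dim, with signals of 3.89 to 6.02 times their error, against 8.47 times or more for the probes of the other detected members. The spots of 1 such probe on 1 array differed with a coefficient of variation of 5.31% to 35.5%, against 0.172% to 5.89% for the others.

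**Figure D2:**
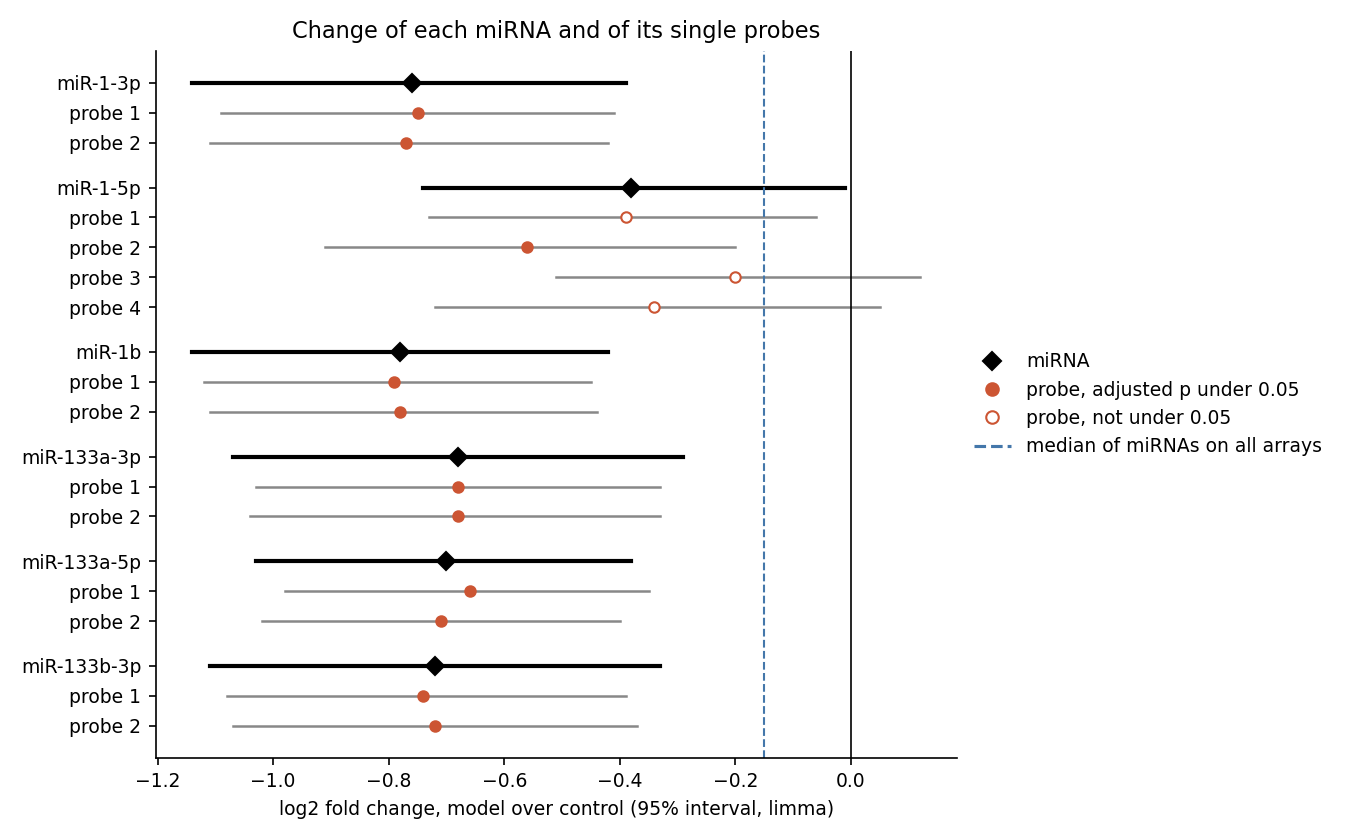
Log2 fold change of model over control (x axis) for each detected member (diamonds) and each of its probes (circles, filled where the limma adjusted p was under 0.05), with 95% intervals. The dashed line, at -0.15, is the median over 198 miRNAs that every array detected. All points lie below 0, and the probes of the 5 members called lie close together, between -0.79 and -0.66, while those of miR-1-5p spread from -0.56 to -0.20.

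Ratios of members on the same array do not change when each array is multiplied by a factor, but they do change under methods that act by rank, such as quantile normalization. On the signals without such a step, 5 pairs detected on all arrays were compared. A ratio of fluorescence is not a ratio of copies, because probes differ in brightness, so only its change between groups is compared. With 3 arrays against 3, the exact permutation test used cannot give a p under 0.10, and no pair can pass.

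The ratio of the arms of the miR-133a hairpin differed between groups by less than it did between arrays of a group. Rno-miR-133a-5p had 57.7%, 56.6% and 50.3% of the signal of rno-miR-133a-3p on the control arrays against 51.0%, 57.8% and 53.2% on the model arrays. The groups overlapped, and the log2 ratio differed by -0.02 (exact permutation test, two-sided, p = 1.0). The arms of the miR-1 hairpin gave less even values. Rno-miR-1-5p had 0.165%, 0.103% and 0.146% of the signal of rno-miR-1-3p on the control arrays against 0.143%, 0.222% and 0.175% on the model arrays. Control array 2 was the lowest and model array 2 the highest, and the groups overlapped (difference of the log2 ratio 0.39, exact permutation test, two-sided, p = 0.30, 0.75 adjusted over the 5 pairs).

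For the paralogues with the same seed, the ratios differed little between the groups. The miRNAs of each such pair differ at 1 base, and probes that bind each other's RNA would hold their ratio steady. These ratios therefore cannot tell whether the paralogues changed alike. Rno-miR-1b had 0.75, 0.662 and 0.748 times the signal of rno-miR-1-3p on the control arrays against 0.724, 0.682 and 0.731 times on the model arrays, with overlap and a difference of the log2 ratio of -0.01 (exact permutation test, two-sided, p = 0.80). Rno-miR-133b-3p had 27.3, 26.5 and 26.4 times the signal of rno-miR-133a-3p on the control arrays against 25.9, 25.9 and 26.4 times on the model arrays. This ratio was lower in the model group without overlap when more digits are kept, but by only 0.04 on the log2 scale, with the smallest p the design allows (exact permutation test, two-sided, p = 0.10, 0.50 adjusted over the 5 pairs). The neighbours on chromosome 18, rno-miR-133a-3p and rno-miR-1-3p, had a ratio of 4.87%, 4.38% and 5.37% on the control arrays against 5.43%, 4.78% and 5.23% on the model arrays, again with overlap (difference of the log2 ratio 0.08, exact permutation test, two-sided, p = 0.60).

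Under other normalizations, 4 of the 5 differences of log2 ratios turned their direction. That of rno-miR-133b-3p over rno-miR-133a-3p was 0.14 with normexp background correction and quantile normalization and 0.68 on the authors' normalized values. That of rno-miR-133a-3p over rno-miR-1-3p was -0.14 and -0.71, and that of rno-miR-133a-5p over rno-miR-133a-3p was 0.15 and 0.23. Rno-miR-1b over rno-miR-1-3p kept its sign and grew to -0.13 and -0.36. Rno-miR-1-5p over rno-miR-1-3p was 0.35 with normexp and -0.13 on the authors' values.

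**Figure D3:**
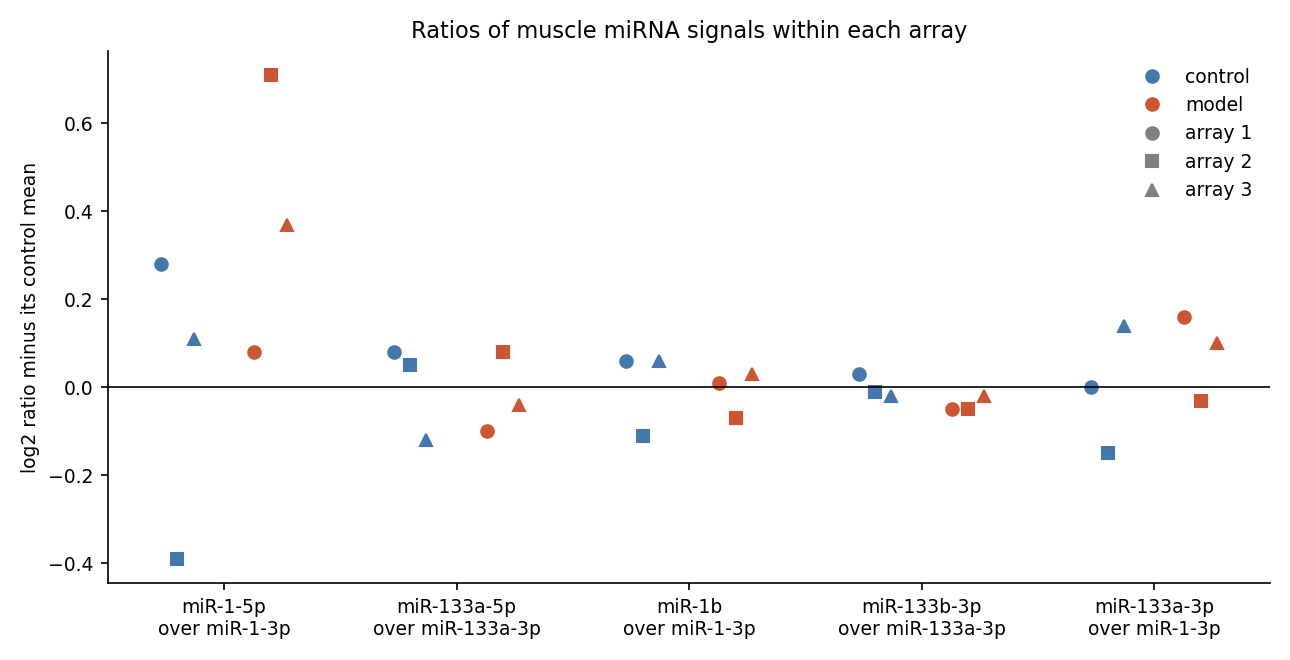
Log2 ratio of 2 members on the same array minus its control mean (y axis) for the 5 pairs (x axis), with 1 point per array. The points of miR-1-5p over miR-1-3p spread widely, and those of the other pairs lie close to 0 in both groups.

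Together the 6 detected members made up a large part of the fluorescence. Probes of near-identical members may bind the same RNA, so their sum may count some RNA more than once. Of the summed signal of all detected miRNAs, they gave 36.7%, 40.1% and 39.5% on the control arrays against 28.7%, 22.6% and 29.1% on the model arrays. Every model array was below every control array, and model array 2 was the lowest. The family's own sum was 21889, 33974 and 22784 on the control arrays against 20603, 15341 and 18708 on the model arrays. The sum of the other detected miRNAs was 37689, 50669 and 34944 on the control arrays against 51274, 52607 and 45557 on the model arrays, so that the groups differed in the share through a lower family sum and, apart from control array 2, a higher remainder.

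**Figure D4:**
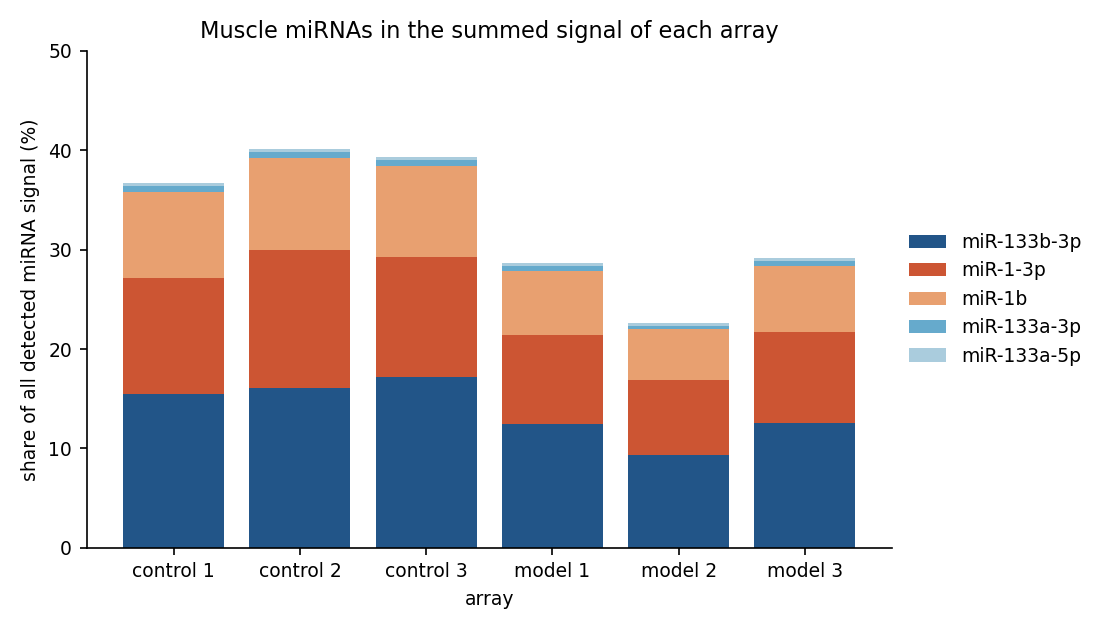
Share of the summed signal of all detected miRNAs on each array (y axis, percent, from 0) given by miR-133b-3p, miR-1-3p, miR-1b, miR-133a-3p and miR-133a-5p, for the 6 arrays (x axis). MiR-1-5p, at under 0.02%, is too small to draw. The control bars reach 36.7% to 40.1% and the model bars 22.6% to 29.1%.

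By order of signal within an array, rno-miR-133b-3p was first and rno-miR-1-3p second on all 6 arrays. Rno-miR-1b was at place 3 except on model array 2, where it was at place 5. Rno-miR-133a-3p went from places 29 to 31 on the control arrays to places 37 to 41 on the model arrays, and rno-miR-133a-5p from places 43 to 46 to places 51 to 59. Rno-miR-1-5p was at places 139 to 147 and 146 to 156. A method that gives equal ranks equal values leaves no difference where the place stays the same, as for rno-miR-133b-3p and rno-miR-1-3p. Under quantile normalization, rno-miR-133b-3p and rno-miR-1-3p had a log2 fold change of 0.00 and only rno-miR-133a-3p (-0.74, limma adjusted p = 0.0194) and rno-miR-133a-5p (-0.62, adjusted p = 0.0429) were called. In the normalized log2 values deposited by the authors, rno-miR-133b-3p was at 13.07 on all arrays but model array 2, where it was at 12.74, and rno-miR-1-3p was at 12.74 on all arrays but model array 2, where it was at 12.49. By the signals used here, both kept their places on model array 2. On those values rno-miR-133a-3p alone was called (log2 fold change -0.79, limma adjusted p = 0.019).

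The calls were close to the threshold and leaned on the scaling. With no scaling between arrays, all 6 members kept a log2 fold change below 0 (-0.54 to -0.14) while the 198 miRNAs that every array detected had a median of 0.09, and 0 members were called by limma, with 1 at an unadjusted p under 0.05. With each array centred on the median deviation of those miRNAs, 4 of the 6 were called, and with the 75th percentile of all miRNAs all 6 were. Over all miRNAs, calls split into 22 higher and 27 lower as reported, 30 and 16 with centring, 19 and 47 with the percentile of all miRNAs, and 19 and 0 without scaling. Leaving out control array 1, 2 or 3 left 0, 2 and 1 members called, and leaving out model array 1, 2 or 3 left 2, 4 and 5. Every one of these fits kept all 6 members below 0, with rno-miR-133a-5p at an adjusted p between 0.0257 and 0.0648. Model array 1 was the only model array in the same row of the slide as the controls, and within that row it was lower than the mean of the controls by 0.57 to 0.73 on the log2 scale for all 6 members. With the row as a block, which rests on model array 1, only rno-miR-1-5p was called (limma adjusted p = 0.0497).

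**Figure D5:**
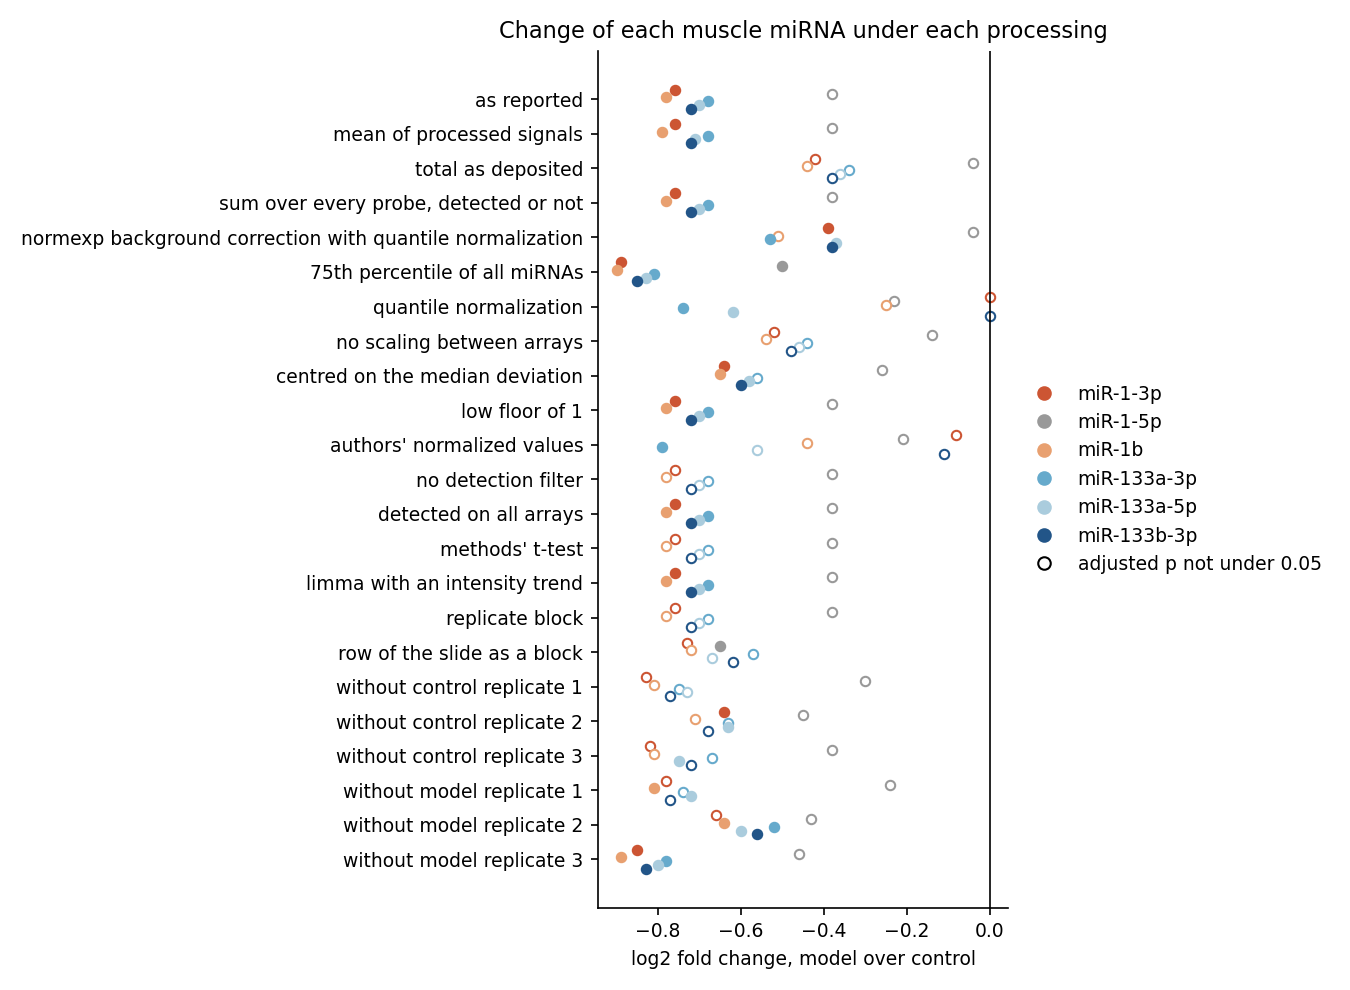
Log2 fold change of model over control (x axis) of the 6 detected members as reported and under each other processing or with 1 array left out (y axis). Filled points have an adjusted p under 0.05. All points lie at or below 0, and those of miR-1-3p and miR-133b-3p reach 0 under quantile normalization.

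Other muscle miRNAs were measured for comparison. MiR-208a, made from an intron of the heart myosin gene Myh6, and miR-499, made from an intron of Myh7b, mark heart muscle, and miR-208b comes from the slow myosin gene Myh7. MiR-208a-5p was detected on all 6 arrays, with signals of 18.3, 24.4 and 19.75 on the control arrays against 15.2, 9.36 and 15.6 on the model arrays, and was called lower (log2 fold change -0.91, SE 0.24, limma adjusted p = 0.0441). MiR-208a-3p was near the limit of detection, at 3.72, 7.23 and 3.07 on the control arrays against 3.14 and 3.37 on model arrays 1 and 3, and was not detected on model array 2, where the fit used the floor (log2 fold change -0.87, adjusted p = 0.0988). MiR-499-5p had signals of 75.8, 132.8 and 59.4 on the control arrays against 77.6, 51.8 and 58.6 on the model arrays, which overlapped, and did not pass the test (log2 fold change -0.69, adjusted p = 0.0929). Both arms of miR-208b and miR-499-3p were not detected on any array. So of 6 such miRNAs 3 were tested and 1 was called lower, where 12.6% of all tested miRNAs were, with a median log2 fold change of -0.87 against -0.14 over all tested miRNAs. That median is the value of miR-208a-3p, which was not called and rests on the floor for model array 2.

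MiRNAs of other cell types moved between the same groups, and their part in the fall of the muscle miRNAs was not tested. All 4 tested fibroblast miRNAs of 5 listed were called higher, where 10.3% of all 214 tested miRNAs were, with a median log2 fold change of 1.62 against -0.14 over all tested miRNAs. The study had already reported all 4 as raised on these same arrays, so these calls are a description and not separate support. The largest change was that of miR-199a-5p, a miRNA of fibrotic tissue, with signals of 39.0, 45.0 and 30.2 on the control arrays against 164, 216 and 144 on the model arrays (log2 fold change 1.95, SE 0.16, limma adjusted p = 0.00147). Their summed scaled level was 1.95 to 2.25 on the control arrays against 3.35 to 3.85 on the model arrays (log2). Before scaling, model array 2 had the lowest signal of every called member and the highest miR-199a-5p. Among the controls it went the other way, as control array 2 had the highest signal of every called member and also the highest miR-199a-5p. Whether the muscle miRNAs and miR-199a-5p are linked was not tested.

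Of 4 tested leukocyte miRNAs of 5 listed, 1 was called higher and 1 lower, against 10.3% and 12.6% of all tested miRNAs. The higher was miR-155-5p, an inflammatory miRNA that the study had also reported as raised (log2 fold change 1.07, limma adjusted p = 0.0127). The lower was miR-150-5p (log2 fold change -0.60, limma adjusted p = 0.0178), and the other tested ones were not called. The summed log2 level of the list was 1.08 to 1.26 on the control and 0.61 to 0.89 on the model arrays. MiR-150-5p had the strongest signal of the list on every array, so the sum mostly follows this miRNA. Both endothelial miRNAs were called lower, where 12.6% of all tested miRNAs were, miR-126a-5p with a log2 fold change of -0.59 (limma adjusted p = 0.0132), and their summed log2 level went from 3.03 to 3.20 on the control arrays to 2.58 to 2.74 on the model arrays. Before scaling, the groups overlapped for both endothelial miRNAs. With no scaling between arrays, 0 of all tested miRNAs were called lower, so these calls leaned on the scaling. None of the 2 tested smooth muscle miRNAs of 3 listed was called (miR-143-3p, log2 fold change -0.17, limma adjusted p = 0.365), and their summed log2 level overlapped, at 2.33 to 2.75 and 2.25 to 2.45. The 1 tested red cell miRNA of 3 listed, miR-451-5p, was not called either (log2 fold change -0.53, limma adjusted p = 0.132), and its log2 level also overlapped, at -1.34 to -0.58 and -1.62 to -1.25. The defining red cell partner miR-144 was not detected in either arm.

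Outside the family, the 3 miRNAs of 207 compared whose scaled log2 signal followed the mean of the 6 detected members most closely over the 6 arrays were miR-30a-3p (Pearson r = 0.99), miR-486 (r = 0.988) and miR-150-5p (r = 0.986). These arrays share their group difference, their scaling and their RNA input, and with group means removed the coefficients were 0.92, 0.90 and 0.89. MiR-30a-3p, abundant in heart, had signals of 85.8, 123.7 and 82.3 on the control arrays against 88.3, 72.1 and 75.7 on the model arrays (log2 fold change -0.53, limma adjusted p = 0.0203). MiR-486, known from muscle and red cells, had 201.0, 263.8 and 208.8 against 176.5, 148.0 and 170.0 (log2 fold change -0.68, limma adjusted p = 0.0132). MiR-150-5p, known from lymphocytes, had 238.5, 356.0 and 252.3 against 221.4, 205.2 and 223.6 (log2 fold change -0.60, limma adjusted p = 0.0178). Before scaling, control array 2 was the highest and model array 2 the lowest array in each of the 3, as for the 5 members called lower but not for rno-miR-1-5p, which was lowest on model array 1.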

How the data were processed

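Total RNA was measured on 6 one-colour Agilent rat miRNA arrays. The authors deposited the spot-level intensity output of Agilent Feature Extraction 10.7.1.1 (named in the submitters' processing notes), background-subtracted and not scaled between arrays, and normalized log2 values by a method not given in the sources used here (column medians -3.31 to -3.22). Members and lists were chosen with earlier results of these data known. Signals were summed over probes over 3 times their error, because the deposited total of some other miRNAs holds more than their own probes. For the members, sum and total were equal within 1e-04. The 75th percentile over 198 miRNAs that every array detected scaled each array, with a floor of -6.50 (log2). A filter as in the study, detection on all arrays of a group, left 214 miRNAs and 394 probes for limma 3.58.1 (R 4.3.3) without covariates, with Benjamini-Hochberg adjustment at 0.05. Ratios were compared by exact permutation over the arrays, computed with numpy 2.4.6. Percentages of control are of geometric means. MiRNAs named outside the family were the 3 with the highest correlation, each list's largest change and every measured other muscle miRNA. The fit was tested on simulated data. The number of arrays, 3 per group, limits the precision. Alternatives were other signals, normalizations, filters and tests, blocks and leaving out each array.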

Additional observations from a re-analysis of the deposited data

How the results depend on the processing

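Over 22 alternatives, log2 fold changes of the 6 tested members stayed below 0, except for 0.00 of miR-1-3p and miR-133b-3p under quantile normalization. Against 5 members called as reported, 0 were called with the total as deposited (5 at an unadjusted p under 0.05; the members' own signals were the same, the scaling was not), 0 without scaling (1 unadjusted), 2 with quantile normalization, 1 with the authors' normalized values, 0 with no detection filter (758 miRNAs tested, 5 unadjusted), 0 with the methods' t-test after Benjamini-Hochberg adjustment (5 unadjusted, none over 2-fold) and 1 with a block for the slide row. With the replicate block, 0 members (5 unadjusted), 10 member probes and, of all miRNAs, 12 higher and 4 lower (22 and 27 as reported) were called. Deviations of same-numbered arrays correlated at -0.262, 0.0316 and 0.236, and only arrays numbered 3 correlated best with each other, so the numbers were not taken as pairs. Leaving out 1 array gave 0 to 5 members and 7 to 11 probes, with 7 probes without control array 3; 0 probes were called without scaling (8 unadjusted). Ratios over left-out arrays ranged from 0.19 to 0.54 (miR-1-5p over miR-1-3p), -0.08 to 0.02 (miR-133a-5p over miR-133a-3p), -0.07 to 0.02 (miR-1b over miR-1-3p), -0.05 to -0.02 (miR-133b-3p over miR-133a-3p) and 0.0066 to 0.15 (miR-133a-3p over miR-1-3p). With normexp and quantile normalization, the last 4 were 0.15, -0.13, 0.14 and -0.14, and with the authors' values the 5 were -0.13, 0.23, -0.36, 0.68 and -0.71. A slide or scan block was not run, since all arrays share 1 of each. Detection limits miR-1-5p, miR-208a-3p and miR-206-3p.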
